A study of Rattus norvegicus with 42 samples.

Results

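Leukotriene synthesis and receptor genes were examined in whole blood of rats after stroke and treatment with tissue plasminogen activator (tPA). The genes were Alox5, Alox5ap, Lta4h, Ltc4s and Ltb4r, and they were taken by gene symbol from the annotation of the array. Each of the 5 had 1 probe set, out of 14217 genes with a symbol and 31042 probe sets tested.

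Leukotrienes are lipid mediators that white blood cells make from arachidonic acid. Alox5 is 5-lipoxygenase, which needs the membrane protein encoded by Alox5ap, FLAP, to receive arachidonic acid, and it forms the unstable leukotriene A4. Lta4h, leukotriene A4 hydrolase, turns leukotriene A4 into leukotriene B4, a chemoattractant that neutrophils sense through the receptor encoded by Ltb4r, while Ltc4s, leukotriene C4 synthase, joins it to glutathione and starts the cysteinyl leukotrienes. Neutrophils and monocytes are known sources of leukotriene B4, and mast cells, basophils and eosinophils of the cysteinyl leukotrienes.

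The study asked how tPA changes blood gene expression with and without middle cerebral artery occlusion (MCAO). All rats were male Sprague-Dawley of 280 to 350 g, and blood was drawn by cardiac puncture into PAXgene tubes at 24 h. There were 42 rats in 7 groups of 6: naive, anesthesia alone, tPA without MCAO, reperfused-MCAO without and with tPA, and permanent-MCAO without and with tPA. A suture closed the artery for 2 h and was then withdrawn in reperfused-MCAO, and it stayed for 24 h in permanent-MCAO. tPA was given at 3.3 mg/kg at 3 h, and untreated groups received none. No source used here states whether the rats given tPA without MCAO were anesthetised at dosing. Each array holds the blood of 1 rat.

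Values are GC-RMA log2 values, so that a difference of 1 stands for a 2-fold change. A probe set was called where a limma fit gave p of at most 0.05 in the model over all 42 arrays, or at most 0.01 between groups, with a fold of at least 1.2. Probe sets with a mean under log2 4 are named dim here, and small differences between dim values carry little information. Array medians lay between 3.05 and 3.26. The hybridization controls, transcripts added in the laboratory, averaged 11.2 ± 0.747 (SD, n = 6) in rats given tPA without MCAO and 12.2 ± 0.221 (SD, n = 6) in anesthesia, and these groups did not overlap. The other groups averaged between 11.9 and 12.2. With tPA without MCAO the controls ran from 9.72 to 11.69, and the array next to the lowest had 11.05. They overlapped naive (lowest 11.58), reperfused-MCAO (lowest 11.58) and permanent-MCAO with tPA (lowest 11.40). Of 9 platelet genes measured none was dim, and of 14 neutrophil genes measured 4 were. In whole blood, fewer cells of a type and less RNA per cell cannot be told apart.

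Promoter sequence is shown for genes that met a threshold in at least 1 comparison below. RefSeq start sites on GRCr8 gave 4 of the 5 genes a promoter, and the 250 bases before the start are printed 5′ to 3′ on the strand of the gene. Capitals mark GGGCGG or its other strand CCGCCC, the GC box that Sp1 binds. The windows are chr4:151251127-151251376 (minus strand) for Alox5, chr7:29856621-29856870 (plus strand) for Lta4h and chr15:33232870-33233119 (plus strand) for Ltb4r.
Alox5: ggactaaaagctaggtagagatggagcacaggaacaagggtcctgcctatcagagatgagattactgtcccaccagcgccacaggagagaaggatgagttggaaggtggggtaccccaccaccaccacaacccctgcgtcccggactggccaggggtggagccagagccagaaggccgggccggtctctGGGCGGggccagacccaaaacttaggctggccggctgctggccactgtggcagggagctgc
Lta4h: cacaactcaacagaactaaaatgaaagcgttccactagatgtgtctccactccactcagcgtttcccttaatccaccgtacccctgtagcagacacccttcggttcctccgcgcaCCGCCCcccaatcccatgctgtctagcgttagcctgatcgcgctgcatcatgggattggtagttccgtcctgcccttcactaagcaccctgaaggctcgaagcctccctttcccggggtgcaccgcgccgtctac
Ltb4r: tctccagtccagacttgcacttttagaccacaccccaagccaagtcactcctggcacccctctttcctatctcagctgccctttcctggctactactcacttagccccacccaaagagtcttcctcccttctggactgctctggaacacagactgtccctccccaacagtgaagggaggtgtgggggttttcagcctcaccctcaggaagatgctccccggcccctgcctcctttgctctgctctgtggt
Alox5 and Lta4h each held 1 GC box, on opposite strands, and Ltb4r and Ltc4s held 0. Of 33469 promoters of the same length 30.5% held at least 1. The core GGAAGT, or ACTTCC on the other strand, which ETS factors such as PU.1 bind, had 1 match in Ltc4s and 0 in the other windows, against 19.2% of promoters with a match. The 2 motifs share no overlapping letters in these windows. G and C made up 62.8% of the Alox5 window and 57.2% of the Ltb4r window. These matches describe the letters in the windows and no binding was measured.

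Alox5ap rose in both kinds of MCAO. In anesthesia the lowest, median and highest values were 7.00, 7.20 and 8.09, and in reperfused-MCAO they were 8.12, 9.22 and 9.998. In permanent-MCAO they were 8.15, 8.43 and 9.06. Every untreated MCAO rat stood above every anesthesia rat, although the closest values lay near each other. How many of all probe sets separated in this way was not counted. Alox5ap was 3.31-fold higher in reperfused-MCAO than in anesthesia (log2 difference 1.73 ± 0.31 SE, adjusted p = 0.0220). In permanent-MCAO it was 2.25-fold higher (log2 difference 1.17 ± 0.22 SE, adjusted p = 0.0722). Both differences gave an exact permutation p of 0.00216, the smallest that the 924 divisions of 12 rats allow. Both comparisons share the anesthesia rats. Against naive rats in place of anesthesia the differences were 1.50 and 0.94, and both were called.

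Of the 5 members 2 were called in reperfused-MCAO against anesthesia, Alox5ap and Alox5, against 6% of all probe sets. Alox5ap passed after adjustment too, as did 2.11% of all probe sets. In permanent-MCAO 1 was called, Alox5ap, against 2.78% of all probe sets, and no member passed after adjustment, against 0.145%. Ltb4r, Lta4h and Ltc4s were not called in either comparison.

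Alox5ap means were higher in all 4 MCAO groups than in the 3 groups without MCAO. Group means ran from 9.06 ± 0.676 in reperfused-MCAO through 8.50 ± 0.375 in permanent-MCAO, 8.29 ± 0.761 in reperfused-MCAO with tPA and 8.18 ± 0.519 in permanent-MCAO with tPA (SD, n = 6 each). The groups without MCAO followed, with 7.56 ± 0.353 in naive, 7.55 ± 0.433 in tPA without MCAO and 7.33 ± 0.407 in anesthesia. Among neighbours in this order only the step between the lowest MCAO group and naive, 0.62, exceeded the larger SD of the pair.

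**Figure D1:**
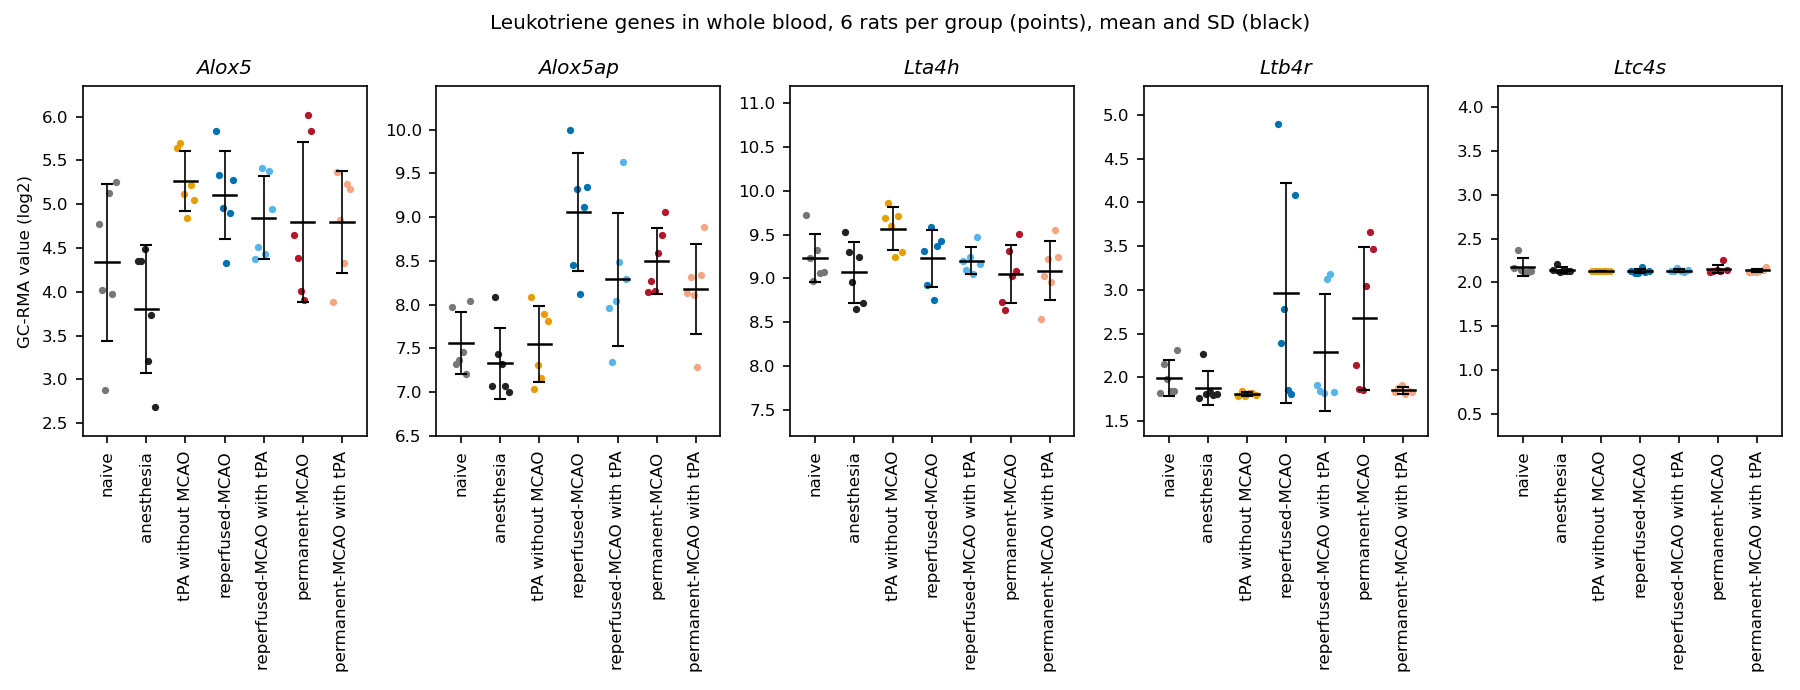
GC-RMA log2 values (vertical axes, each spanning 4 log2 units) of the 5 members in 7 groups (horizontal axes). Points are rats, 6 per group, and black bars are the mean and SD. Alox5ap is higher in the 4 MCAO groups, Alox5 is highest in tPA without MCAO with a mean of 5.26, Ltb4r leaves its low level in some MCAO rats, and Ltc4s spans 0.26 over all 42 arrays.

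Alox5, the enzyme itself, was lowest in anesthesia and highest in rats given tPA without MCAO. The lowest, median and highest values were 2.68, 4.04 and 4.48 in anesthesia and 4.84, 5.17 and 5.70 in tPA without MCAO. The groups did not overlap, and the share of all probe sets without overlap was not counted. By limma p Alox5 ranked 1292 among the 31042 probe sets. Alox5 was 2.75-fold higher with tPA (log2 difference 1.46 ± 0.32 SE, adjusted p = 0.0186, exact permutation p = 0.00216). It was the 1 member called in this comparison, where 13.7% of all probe sets were called and 12.5% passed after adjustment. Bright probe sets, those with a mean of at least log2 4, had a median difference of 0.24 here.

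Markers of blood cells moved in the same comparison. Of 12 T cell genes measured, 10 were called higher and 0 lower with tPA without MCAO (median difference 0.74), and the mean of the list ran from 8.71 to 9.19 in anesthesia and from 9.62 to 10.04 with tPA. Of 13 erythroid genes, 9 were called lower and 0 higher (median difference −1.47), and the mean ran from 9.87 to 10.79 in anesthesia and from 7.38 to 9.45 with tPA. The groups did not overlap in either list mean. Of 9 platelet genes 4 were called lower, of 8 NK and cytotoxic cell genes 1 was called lower, and of 6 B cell genes none was called. The part of these lists in the Alox5 and Lta4h differences was not tested.

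The size of this difference changed with the control group and with the hybridization controls. Against naive rats, whose Alox5 values ran from 2.88 to 5.26, the difference was 0.92 (adjusted p = 0.170), and it was not called. With the level of the hybridization controls as a covariate it was 1.11 (adjusted p = 0.509), also not called. With the mean of the neutrophil genes as a covariate it was 1.35 (adjusted p = 0.0308), and it was called. The hybridization controls did not overlap between anesthesia and tPA without MCAO, so a fit with them as covariate cannot separate them from tPA.

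Alox5 was called higher in 1 of the 2 kinds of MCAO against anesthesia. Its values in reperfused-MCAO ran from 4.33 to 5.83 with a median of 5.11, and 5 of 6 rats lay above every anesthesia rat. The difference was 1.30 ± 0.35 SE, a 2.47-fold change (adjusted p = 0.0884, exact permutation p = 0.00866). In permanent-MCAO values spread from 3.90 to 6.02, and the difference of 1.00 ± 0.46 SE was not called (exact permutation p = 0.0758). The 95% intervals, 0.54 to 2.07 in reperfused-MCAO and −0.0072 to 2.00 in permanent-MCAO, overlapped. The 2 untreated kinds of MCAO were not compared with each other. Against naive rats the difference in reperfused-MCAO was 0.77 (adjusted p = 0.331) and was not called. Anesthesia against naive gave −0.54 with a 95% interval of −1.53 to 0.46, and none of the members was called there, against 0.821% of all probe sets. At an unadjusted p of at most 0.05 no member passed there either, against 4.89% of all probe sets.

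The order of Alox5 means was 5.26 ± 0.342 in tPA without MCAO, 5.10 ± 0.504 in reperfused-MCAO, 4.84 ± 0.474 in reperfused-MCAO with tPA, 4.80 ± 0.584 in permanent-MCAO with tPA, 4.80 ± 0.916 in permanent-MCAO, 4.34 ± 0.896 in naive and 3.80 ± 0.733 in anesthesia (SD, n = 6 each). No step between neighbours exceeded the larger SD of the pair.

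Lta4h, the enzyme that forms leukotriene B4, varied least among the bright members, from 8.54 to 9.86 over the 42 arrays. The lowest, median and highest values were 8.66, 9.10 and 9.53 in anesthesia and 9.24, 9.65 and 9.86 in tPA without MCAO. The groups overlapped, with 4 of 6 treated rats above every anesthesia rat. The difference of 0.50 ± 0.17 SE did not meet the p threshold (limma p = 0.0126, adjusted p = 0.0726, exact permutation p = 0.0173). After stroke the differences against anesthesia were 0.16 in reperfused-MCAO and −0.018 in permanent-MCAO, with 95% intervals from −0.25 to 0.57 and from −0.43 to 0.40. The mean in tPA without MCAO, 9.57 ± 0.245 (SD, n = 6), was followed by naive at 9.23 ± 0.272 (SD, n = 6), a step of 0.34 that exceeded both SDs. The remaining group means lay between 9.05 and 9.23 with no step beyond the spread.

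Ltc4s, the entry to the cysteinyl leukotrienes, was dim in every rat. Its values lay between 2.11 and 2.38, and group means between 2.13 and 2.18. Its differences in the 6 comparisons between 2 groups ran from −0.031 to 0.0080, and none was called. Of the 11 mast cell, basophil and eosinophil genes measured, 7 were dim as well. At this signal a difference in Ltc4s was not detectable.

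Ltb4r, the leukotriene B4 receptor, was dim on average, with higher values in some MCAO rats. The highest value in any rat without MCAO was 2.31. Above it stood 4 of 6 rats in reperfused-MCAO, 3 of 6 in permanent-MCAO, 2 of 6 in reperfused-MCAO with tPA and 0 of 6 in permanent-MCAO with tPA. The brightest were 4.89 and 4.08, both in reperfused-MCAO.

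The lowest, median and highest Ltb4r values were 1.77, 1.81 and 2.27 in anesthesia, 1.81, 2.59 and 4.89 after reperfusion and 1.86, 2.60 and 3.66 with permanent occlusion. The groups overlapped at their lower ends. Neither difference was called: 1.09 ± 0.50 SE in reperfused-MCAO (exact permutation p = 0.0238) and 0.79 ± 0.33 SE in permanent-MCAO (exact permutation p = 0.0541). With a single variance over all 7 groups, the reperfused-MCAO difference was called (adjusted p = 0.0841). Group means fell in the order 2.97 ± 1.26 in reperfused-MCAO, 2.67 ± 0.815 in permanent-MCAO, 2.29 ± 0.672 in reperfused-MCAO with tPA, 1.99 ± 0.201 in naive, 1.88 ± 0.191 in anesthesia, 1.85 ± 0.0384 in permanent-MCAO with tPA and 1.81 ± 0.0235 in tPA without MCAO (SD, n = 6 each). Of these steps only the last exceeded the larger SD of the pair, and both of its groups were dim.

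Within each kind of MCAO, tPA changed no member past the thresholds. In reperfused-MCAO 0 of 5 members were called, against 0.722% of all probe sets, and 0 members reached an unadjusted limma p of 0.05, against 7.99%. In permanent-MCAO 0 of 5 were called, against 0.322% of all probe sets, and 1 reached an unadjusted limma p of 0.05, against 2.31%. After Benjamini-Hochberg adjustment 0 of all probe sets, or 0%, passed in either comparison.

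Alox5ap values in reperfused-MCAO with tPA ran from 7.35 to 9.63 with a median of 8.17, against 8.12 to 9.998 without. In 3 of the 6 treated rats the value lay below every untreated rat. The difference of −0.77 had a 95% interval from −1.65 to 0.11 (exact permutation p = 0.106). In permanent-MCAO it was −0.32, with an interval from −0.88 to 0.23. The difference between these effects was −0.44 ± 0.48 SE.

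The member that reached an unadjusted p of 0.05 in permanent-MCAO was Ltb4r. Its values with tPA lay between 1.82 and 1.92, while 3 of the 6 untreated permanent-MCAO rats stood between 3.05 and 3.66. The other untreated rats were dim and near the treated ones, from 1.86 to 2.15. The difference was −0.82 ± 0.32 SE (limma p = 0.0259, exact permutation p = 0.0216, adjusted p = 1). Leaving out permanent-MCAO rat 2 or rat 3 brought it to −0.98 in each case and past the threshold. In reperfused-MCAO it was −0.68 ± 0.56 SE (exact permutation p = 0.255). The difference between the tPA effects in the 2 kinds of MCAO was called for 0 members, against 0.296% of all probe sets, and 0 members had an unadjusted p under 0.05, against 2.52%.

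For Alox5 the tPA difference was −0.26 with reperfusion and 0.00098 with permanent occlusion. The 95% intervals ran from −0.86 to 0.34 and from −0.93 to 0.93. The difference of 1.46 that tPA without MCAO showed against anesthesia had an interval from 0.76 to 2.16. That interval lay above the one with reperfusion and overlapped the one with permanent occlusion. The value of 0.92 against naive rats lay inside the interval for permanent occlusion. Lta4h differed by −0.025 and 0.038.

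**Figure D2:**
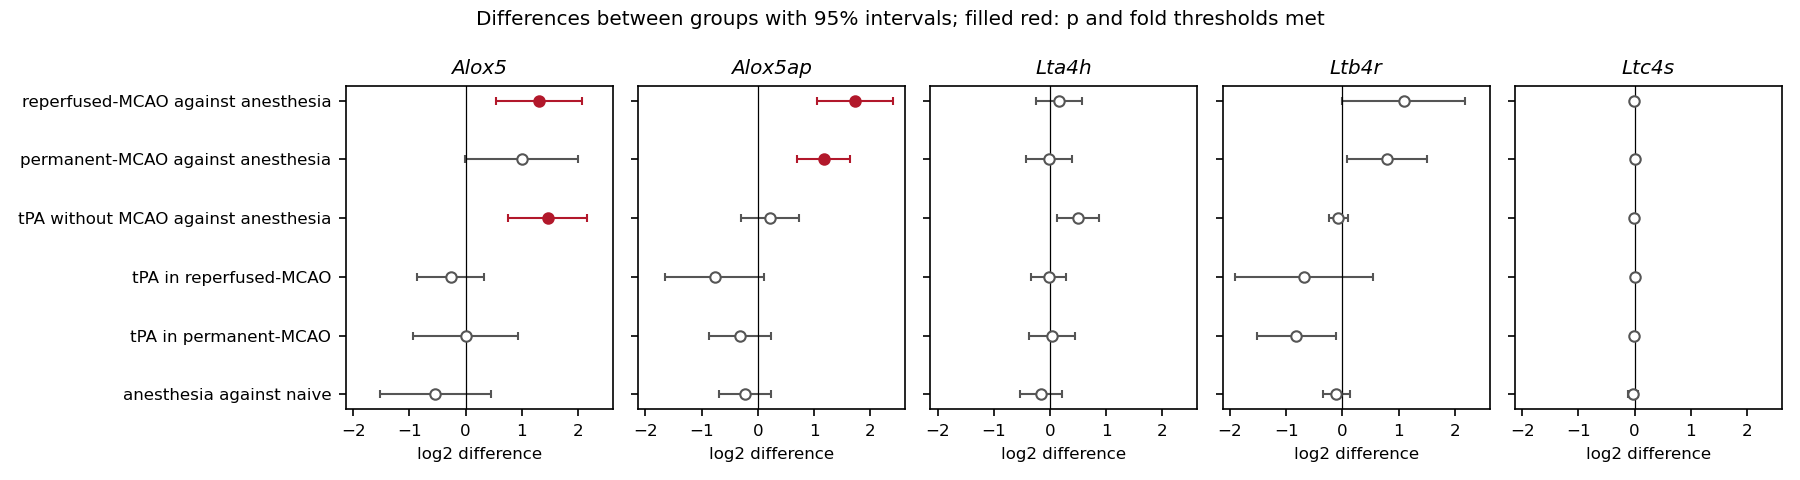
Log2 differences (horizontal axes) of the 5 members in 6 comparisons (vertical axis) with 95% intervals from limma. Filled red points met the p and fold thresholds: Alox5ap in reperfused-MCAO (1.73) and permanent-MCAO (1.17), and Alox5 in reperfused-MCAO (1.30) and tPA without MCAO (1.46).

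The model over all 42 arrays held terms for tPA, any MCAO, anesthesia and tPA by stroke, and its tPA and stroke effects are averages over the other factor. The stroke effect called 2 of the 5 members, Alox5ap and Ltb4r, against 15.4% of all probe sets, and Alox5ap passed after adjustment, against 7.86%. Alox5ap rose by 1.07 ± 0.19 SE, a 2.09-fold change (adjusted p = 0.000603). Ltb4r rose by 0.60 ± 0.22 SE (adjusted p = 0.0860). It was not called when the rats given tPA without MCAO were coded as not anesthetised (adjusted p = 0.570). For Alox5 the averaged stroke effect was 0.36 ± 0.23 SE and was not called (adjusted p = 0.398).

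The averaged tPA effect called 1 member, Alox5, against 12% of all probe sets. Alox5 rose by 0.66 ± 0.23 SE, a 1.59-fold change (adjusted p = 0.0854). It came to 0.40 and was not called when the rats given tPA without MCAO were coded as not anesthetised (adjusted p = 0.657). Under that coding Ltb4r was called in its place, at −0.47. Over the 4 MCAO groups alone the tPA effect on Alox5 was −0.13 (adjusted p = 0.908). Over those 4 groups Alox5ap and Ltb4r were called instead, at −0.55 and −0.75, each with an adjusted p of 0.858. Lta4h rose by 0.25 with a fold of 1.19, just under the fold threshold.

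The interaction, the tPA effect with MCAO minus that without, called 3 members, all negative, against 21% of all probe sets in either direction and 14.4% negative. After adjustment 1 passed, against 9.47%. Alox5 had −1.59 ± 0.46 SE (adjusted p = 0.0251). Alox5ap had −0.76 ± 0.37 SE (adjusted p = 0.165) and Lta4h −0.49 ± 0.20 SE (adjusted p = 0.108). Bright probe sets had a median interaction of −0.25. With the hybridization controls as a covariate the interaction was −1.39 for Alox5 (adjusted p = 0.597) and −1.09 for Alox5ap (adjusted p = 0.609), which were called, and −0.29 for Lta4h (adjusted p = 0.923), which was not. Alox5ap was not called with the methods' test, quantile scaling or median centring. The interaction called 9 of 12 T cell genes negative and 11 of 13 erythroid genes positive, and their part in these results was not tested. The Alox5 call held when any 1 of the 42 arrays was left out, with values from −1.73 to −1.37. The Alox5ap call was lost in 25 of 42 such fits and the Lta4h call in 2, those without anesthesia rat 4 (−0.41) or rat 6 (−0.42).

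Other genes of the leukotriene pathway were read from a list of 15, of which 13 were measured. The stroke effect called 1 higher and 1 lower, against 15.4% of all probe sets in either direction. The averaged tPA effect called 1 higher and 2 lower, against 12%. The interaction called 2 positive and 4 negative, against 21%. The list's medians were 0.038, −0.0056 and −0.14, against 0.0025, 0.0024 and 0.014 over all probe sets. Bright probe sets had medians of −0.092, 0.10 and −0.25, and 5 of the 13 genes were dim. The median of −0.14 was the value of the dim gene Ptgr1. Between groups, 3 were called higher in reperfused-MCAO than in anesthesia, against 4.09% of all probe sets, and 1 in permanent-MCAO, against 1.77%. With tPA without MCAO 3 were called higher and 2 lower, against 9.15% and 4.59% of all probe sets. Within each kind of MCAO tPA called 0 of the 13, against 0.722% of all probe sets in reperfused-MCAO and 0.322% in permanent-MCAO.

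Ggt5, a gamma-glutamyl transferase that converts leukotriene C4 to leukotriene D4, followed stroke. Its mean was 6.84 ± 0.404 in anesthesia, 8.56 ± 0.441 after reperfusion and 8.18 ± 0.303 with permanent occlusion (SD, n = 6 each). The lowest reperfused-MCAO rat, 7.85, and the lowest permanent-MCAO rat, 7.84, stood above the highest anesthesia rat, 7.50. How many of all probe sets separated in this way was not counted. The differences were 1.73 (adjusted p = 0.0110) and 1.34 (adjusted p = 0.0398), and the stroke effect was 1.13 (adjusted p = 0.000152). Its interaction was −0.82 (adjusted p = 0.112). Ggt1, the related transferase, had an interaction of −1.83 ± 0.62 SE (adjusted p = 0.0528).

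Dpep2, a dipeptidase that converts leukotriene D4 to leukotriene E4, and Mgst3, a microsomal glutathione transferase, were lower with tPA without MCAO. Dpep2 fell by 1.47 on the log2 scale (adjusted p = 0.0287), from a mean of 9.20 ± 0.620 in anesthesia to 7.73 ± 0.705 (SD, n = 6 each). Mgst3 fell by 1.77 (adjusted p = 0.0191), from 7.17 ± 0.836 to 5.39 ± 0.531 (SD, n = 6 each). Naive rats lay between, with 8.68 ± 0.556 for Dpep2 and 6.47 ± 0.604 for Mgst3 (SD, n = 6 each). Anesthesia against naive gave 0.52 for Dpep2 and 0.70 for Mgst3, neither called. Their interactions were positive, at 1.50 (adjusted p = 0.0108) and 1.74 (adjusted p = 0.0148), the opposite sign of those of Alox5, Alox5ap and Lta4h. In the same comparison 9 of 13 erythroid genes were called lower (median difference −1.47), and 11 of 13 had a called positive interaction (median 1.45). The part of erythroid genes and of the hybridization controls in the differences of these other pathway genes was not tested.

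Cotl1, a protein that binds 5-lipoxygenase, rose by 0.56 with tPA without MCAO (adjusted p = 0.0168) and had an interaction of −0.53 (adjusted p = 0.118). Abcc1, an exporter of leukotriene C4, rose by 0.49 with tPA without MCAO (adjusted p = 0.0521) and by 0.51 in reperfused-MCAO (adjusted p = 0.0524). Mgst2, a microsomal glutathione transferase that can form leukotriene C4, rose by 0.37 and 0.36 in these comparisons (adjusted p = 0.0279 and adjusted p = 0.102). Abcc1 had an interaction of −0.77 (adjusted p = 0.0595). In naive rats the means of Cotl1, Abcc1 and Mgst2 were 10.68, 5.26 and 9.59, against 10.45, 5.08 and 9.44 in anesthesia. With tPA without MCAO the means were 11.01, 5.57 and 9.81. Pla2g4a, the phospholipase that releases arachidonic acid, and Ptgr1, which inactivates leukotriene B4, were called in none of the comparisons. The receptors Ltb4r2, Cysltr1 and Cysltr2 and the dipeptidase Dpep1 were dim, with means of 2.12, 2.72, 2.38 and 2.52 over the 42 arrays, and were not called.

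**Figure D3:**
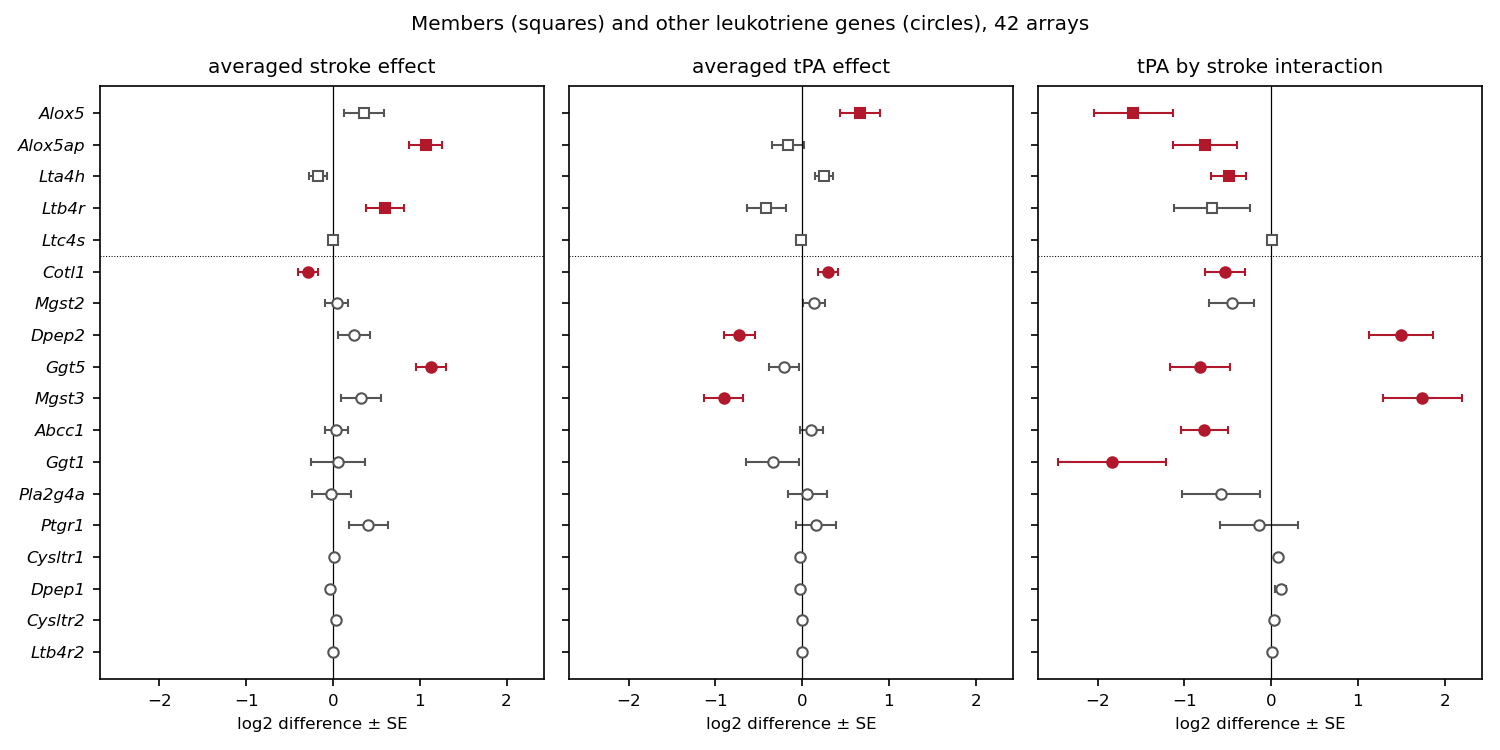
Log2 difference ± SE (horizontal axes) for the averaged stroke effect, the averaged tPA effect and the interaction, with members as squares above the dotted line and 13 other leukotriene genes as circles. Filled red symbols met the thresholds. Alox5ap (1.07) and Ggt5 (1.13) carry the highest stroke effects in the plot, and Dpep2 and Mgst3 lie opposite to Alox5 in both tPA panels.

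Some neutrophil genes were called higher in both kinds of untreated MCAO than in anesthesia. Of 14 measured, 5 were called higher than anesthesia after reperfusion, against 4.09% of all probe sets, and 3 of them passed after adjustment. With permanent occlusion 5 were called higher, against 1.77% of all probe sets, and 0 passed after adjustment. They were the same 5 genes, and the other 9 were called in neither comparison. The stroke effect called 7 higher and 1 lower, against 6.02% and 9.39% of all probe sets. The 14-gene mean ran from 6.23 to 7.43 in anesthesia, from 6.65 to 8.63 in reperfused-MCAO and from 6.71 to 8.07 in permanent-MCAO. Of 9 monocyte genes, 3 were called higher in reperfused-MCAO and 2 in permanent-MCAO, and 0 lower. The shares of all probe sets called higher there were 4.09% and 1.77%. With tPA without MCAO 2 neutrophil genes and 1 monocyte gene were called higher, against 9.15% of all probe sets. The interaction called 5 neutrophil and 3 monocyte genes negative, against 14.4% of all probe sets.

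With the neutrophil mean as a covariate Alox5ap had a difference of 1.11 in reperfused-MCAO (adjusted p = 0.0299), 0.92 in permanent-MCAO (adjusted p = 0.0472) and a stroke effect of 0.84 (adjusted p = 9.0e-05). This covariate is a mean of 14 genes, 4 of them dim, and not a count of neutrophils. Alox5 in reperfused-MCAO came to 0.86 (adjusted p = 0.503) and was no longer called. The interactions came to −1.17 for Alox5 (adjusted p = 0.0516), which was called, and to −0.31 for Alox5ap (adjusted p = 0.395) and −0.37 for Lta4h (adjusted p = 0.218), which were not. The stroke effect also called 7 of 8 NK and cytotoxic cell genes and 7 of 9 platelet genes higher and 11 of 12 T cell genes lower. Over all probe sets it called 6.02% higher and 9.39% lower. The part of neutrophil numbers and of monocyte, NK, platelet and T cell genes in these results was not tested.

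Across the 42 arrays 20 relations were computed, with p-values from 100000 permutations adjusted over the 20. The permutations ignored group, so their p-values do not separate differences between groups from relations among rats. The r after group means were subtracted has no p-value. Alox5ap followed the neutrophil mean (r = 0.728, rho = 0.626, adjusted permutation p = 0.0001 and 0.0003, raw p = 1e-05 and 3e-05). The relation was r = 0.670 without the 2 arrays farthest in neutrophil mean and 0.781 after group means were subtracted. Alox5 followed it as well (r = 0.566, rho = 0.571, adjusted permutation p = 0.00064 and 0.000533, raw p = 0.00015 and 8.0e-05), with 0.552 and 0.583 in the same checks. For Lta4h r was 0.304 (rho = 0.322, adjusted permutation p = 0.102 and 0.0830, raw p = 0.0511 and 0.0374). For Ltb4r r was 0.611 and rho 0.343 (adjusted permutation p = 0.000333 and 0.0772, raw p = 5e-05 and 0.0270), and r fell to 0.495 without the 2 farthest arrays. A raw p of 1e-05 is the smallest these permutations can give.

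**Figure D4:**
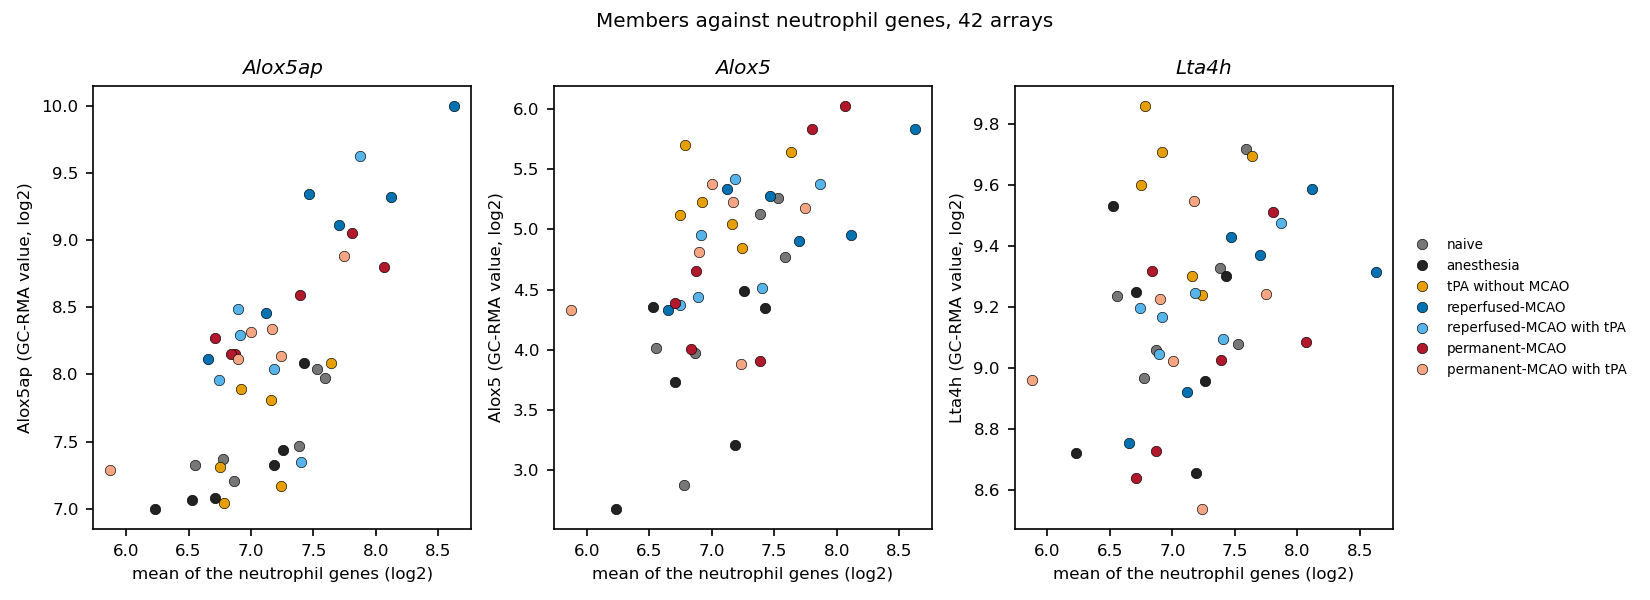
Values of Alox5ap, Alox5 and Lta4h (vertical axes, log2) against the mean of 14 neutrophil genes (horizontal axes, log2) in 42 arrays coloured by group. At like neutrophil means the MCAO rats mostly lie above the rats without MCAO for Alox5ap, and the rats given tPA without MCAO lie high for Alox5. The correlations are 0.728, 0.566 and 0.304.

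Among the members, Alox5ap and Ltb4r were related (r = 0.728, rho = 0.625, adjusted permutation p = 0.0001 and 0.0003, raw p = 1e-05 and 2e-05), with r = 0.627 without the 2 farthest arrays and 0.633 within groups. Alox5 and Lta4h had r = 0.554 (rho = 0.513, adjusted permutation p = 0.00064 and 0.00235, raw p = 0.00016 and 0.00047), with 0.513 and 0.551 in these checks. Alox5ap and Alox5 had r = 0.524 (rho = 0.462, adjusted permutation p = 0.00107 and 0.00944, raw p = 0.00032 and 0.00236), with 0.467 and 0.510. Alox5ap and Lta4h had r = 0.142 over all arrays and 0.433 within groups. Each of the 4 relations of Ltc4s to another member had an r between −0.08 and 0.07. Lta4h was related to the hybridization controls (r = −0.482, rho = −0.422, adjusted permutation p = 0.00154 and 0.0208, raw p = 0.00054 and 0.00625), which fell to −0.326 without the 2 farthest arrays and −0.225 within groups. For Alox5 and these controls r was −0.312 (rho = −0.187, adjusted permutation p = 0.102 and 0.392, raw p = 0.0465 and 0.235), and −0.0896 within groups.

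Genes with the most similar pattern over the 42 arrays were sought among 7963 bright genes by Pearson r. For Alox5ap they were Ccr1, a chemokine receptor (r = 0.927), Il1r2, the interleukin-1 decoy receptor (r = 0.916), and Ets2, a transcription factor (r = 0.915). After group means were subtracted these were still 0.882, 0.845 and 0.823. Il1r2 was also among the neutrophil genes. For Alox5 they were Adam8 (r = 0.784), Ctsf (r = 0.782) and Adgrg3 (r = 0.782), and for Lta4h Glmp (r = 0.730), Rnaset2 (r = 0.726) and Pgs1 (r = 0.657). For Ltb4r they were Tlr2 (r = 0.801), Nudt9 (r = 0.788) and Id1 (r = 0.774), with Spearman's rho of only 0.538, 0.422 and 0.556, as few rats carried high Ltb4r values. For Ltc4s the highest r was 0.443, for Zfp518a, and it fell to 0.177 without 2 arrays.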

How the data were processed

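Whole blood RNA of 42 rats was amplified, labelled and hybridised to Affymetrix rat arrays. The deposited values are log2 values that the authors made from the scans with GC-RMA in Partek, and the scans were not used here. The limma p-values weigh a difference against the spread between rats, with variances moderated over all probe sets. With 1 array per rat, spread between rats and between arrays cannot be separated. The number of arrays limits precision. The 57 control probe sets were set aside, and 31042 were tested: 20826 had 1 symbol in the annotation given with the series, 436 several and 9780 none. limma 3.58.1 (R 4.3.3) was fitted to all probe sets, with Benjamini-Hochberg adjustment over all of them. The model over 42 arrays and the thresholds follow the study's methods, and other comparisons used only the 12 arrays concerned, or the 24 MCAO arrays. Exact tests are two-sided over 924 divisions, and relations used 100000 permutations. Fits and relations were tested on simulated data with planted differences. Named were all members, measured genes of the pathway list, called arachidonate genes, and the 3 most similar genes to each member. Members and lists were chosen with earlier results of these data known. Promoters are from RefSeq on GRCr8. Alternatives were array weights, an intensity trend, centring, quantile scaling, removal of dim probe sets, covariates, other codings and controls, a replicate block, the methods' test and omission of each array. Figures used Python 3.11.15 and matplotlib 3.10.9.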

Additional observations from a re-analysis of the deposited data

Results flagged for a closer look

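The interaction of tPA with stroke was called for Alox5 (−1.59), Alox5ap (−0.76) and Lta4h (−0.49). All were negative, against 14.4% of all probe sets called negative, and bright probe sets had a median of −0.25. For these members the tPA effect was lower in rats with MCAO than without. The Alox5ap call was lost in 25 of the 42 fits that left out 1 array. After adjustment Alox5ap (adjusted p = 0.165) and Lta4h (adjusted p = 0.108) did not pass. Alox5 passed (adjusted p = 0.0251), as did 9.47% of all probe sets. Its adjusted p was 0.597 with the hybridization covariate, 0.241 with tPA without MCAO coded as not anesthetised and 0.0516 with the neutrophil covariate. The tPA difference for Alox5 was −0.26 in reperfused-MCAO, 0.00098 in permanent-MCAO and 1.46 without MCAO. For Alox5ap it was −0.77, −0.32 and 0.22.

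Among 35 groups of 6 rats tested, 5 held a rat that stood far from the others, measured as its gap to the nearest rat over the range of the group. For Ltc4s the share was 0.827 in naive, 0.735 in anesthesia, 0.689 in reperfused-MCAO and 0.778 in permanent-MCAO, where the whole range over all 42 arrays was 0.26. For Ltb4r it was 0.871 in anesthesia, where 1 rat had 2.27 and the median was 1.81. Chance gives about 1 in 20 such groups, and both genes were dim.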

How the results depend on the processing

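Alox5ap after stroke, Alox5 with tPA without MCAO and the Alox5 interaction kept their direction under every alternative run. Of 515 member differences under alternatives other than omission of a rat, 471 kept direction and side of the threshold, 16 lost and 10 gained it, and 18 changed sign, 10 of them of Ltc4s.

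The averaged tPA effect, with 1 member called, had 2 with array weights, quantile scaling, the neutrophil covariate or the 4 MCAO groups only, and 0 with the hybridization covariate. It ranged from 1 to 2 when 1 rat was left out. With tPA without MCAO coded as not anesthetised it still had 1, but Ltb4r in place of Alox5. The stroke effect, with 2, had 1 without dim probe sets or with tPA without MCAO coded as not anesthetised. The interaction, with 3, had 1 with that coding or the neutrophil covariate, 2 with quantile scaling, median centring or the methods' test (Alox5ap lost) or the hybridization covariate (Lta4h lost), and 1 to 3 when 1 rat was left out. In tPA without MCAO against anesthesia, with 1 member called, there were 2 with array weights or 1 fit over all 7 groups, 0 with the hybridization covariate, 1 to 2 when 1 rat was left out, and, as an alternative chosen after seeing the data, 0 with naive rats as controls. Reperfused-MCAO against anesthesia, with 2, had 1 with either covariate or with naive controls. tPA in permanent-MCAO ranged from 0 to 1 when 1 rat was left out. The cause was not tested.

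Rat numbers recur between groups in the labels, and nothing says that they pair rats. Correlations of same-numbered rats ran from −0.38 to 0.36, and at most 2 of 6 rats in a comparison correlated best with their own number. With the number as a replicate block 2 members were called in tPA without MCAO against anesthesia, Alox5 and Lta4h, in place of 1, and the pairing changed no other call.

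Signs changed as follows. With the hybridization covariate the averaged tPA effect on Alox5ap was 0.0041, Lta4h with tPA in permanent-MCAO was −0.036, and Ltc4s had a stroke effect of −0.0031 and an interaction of −0.0039. With the 4 MCAO groups only the tPA effect on Alox5 was −0.13. With the neutrophil covariate Lta4h was 0.12 for tPA in reperfused-MCAO and −0.012 for reperfused-MCAO against anesthesia, and Ltc4s was −0.0030 for tPA in reperfused-MCAO and −0.010 for permanent-MCAO against anesthesia. With array weights Lta4h was 0.12 in permanent-MCAO against anesthesia. With quantile scaling Ltc4s was −0.0030 for stroke, −0.012 for the interaction, −0.011 for tPA in reperfused-MCAO and 0.0011 for reperfused-MCAO against anesthesia, and with median centring −0.0075 for permanent-MCAO. With naive controls Lta4h was −0.0022 in reperfused-MCAO, Ltc4s −0.023 in permanent-MCAO and Alox5ap −0.012 in tPA without MCAO.

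Leaving out 1 rat turned the sign of small differences. Alox5 with tPA in permanent-MCAO ran from −0.18 to 0.25. Lta4h ran from −0.12 to 0.047 with tPA in reperfused-MCAO, from −0.054 to 0.15 with tPA in permanent-MCAO, from −0.11 to 0.075 in permanent-MCAO against anesthesia and from −0.17 to 0.029 for the difference between the tPA effects. Ltb4r ran from −0.095 to 0.52 for that difference and from −0.092 to 0.0080 for tPA without MCAO. Ltc4s ran from −0.045 to 0.0083 in anesthesia against naive, −0.011 to 0.022 in permanent-MCAO against anesthesia, −0.0040 to 0.0080 for stroke, −0.0058 to 0.018 for the interaction, −0.024 to 0.0032 and −0.0014 to 0.014 for tPA in permanent-MCAO and reperfused-MCAO, and −0.019 to 0.00017 for tPA without MCAO.

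Each gene was read by 1 probe set, so no second probe set checks it. Ltc4s and Ltb4r were dim, and their levels near the bottom of the scale have no reliable order. The rats given tPA without MCAO had the lowest mean of hybridization controls. All lay below every anesthesia rat but overlapped naive, reperfused-MCAO and permanent-MCAO with tPA. The low controls cannot be told apart from tPA in that group. Groups of 6 rats leave wide intervals for Alox5 and Ltb4r, and blood was drawn at 24 h only.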

Other observations

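Among 12 other enzymes of arachidonic acid, 3 were called higher with stroke, against 6.02% of all probe sets. Alox12, a lipoxygenase known in platelets, rose by 0.96 ± 0.21 SE (adjusted p = 0.00354), and Ptgs1, cyclooxygenase 1, rose by 0.71 ± 0.15 SE (adjusted p = 0.00249). Against anesthesia Alox12 was called in reperfused-MCAO (0.96, adjusted p = 0.0787) but not in permanent-MCAO (0.30). Ptgs1 was called in neither (0.56 and 0.48). Anesthesia against naive also called Ptgs1 higher, at 0.49 (adjusted p = 0.940). The third was Alox15, with an averaged effect of 0.28 ± 0.09 SE (adjusted p = 0.0496), but against anesthesia it differed by −0.26 in untreated reperfused-MCAO and by −0.18 in untreated permanent-MCAO, neither called. Its mean was 13.6 ± 0.519 in tPA without MCAO and between 14.2 and 14.5 in the other groups (SD, n = 6 each). Of 9 platelet genes measured, 7 were called higher with stroke as well. Against anesthesia 1 was called higher in untreated reperfused-MCAO and 0 in untreated permanent-MCAO, against 4.09% and 1.77% of all probe sets. The part of platelet genes in these results was not tested. Alox15 fell by 0.94 with tPA without MCAO (adjusted p = 0.0234) and had an interaction of 0.99 ± 0.18 SE (adjusted p = 0.00245), the opposite sign to Alox5. Of 13 erythroid genes 9 were called lower in that comparison (median −1.47) and 11 had a called positive interaction, and their part in the Alox15 values was not tested. In the same comparison Ptges3, a prostaglandin E synthase, rose by 0.44 (adjusted p = 0.0183). Its mean was 10.39 ± 0.109 in tPA without MCAO, 10.34 ± 0.122 in naive and 9.95 ± 0.216 in anesthesia (SD, n = 6 each). Ptges3 was called lower in anesthesia than in naive, at −0.39 (adjusted p = 0.940). All 6 prostanoid and lipoxin receptors measured were dim.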
